A study of Mus musculus with 57 samples.

Results

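The Esrrb locus was described here through every CUT&RUN peak whose summit lay within 100 kb of the annotated start of Esrrb, at base 86361117 of chromosome 12 in the mouse genome build mm10. Of 775358 peaks in 30 peak lists, 172 met this rule, and 25 of the 30 lists held at least 1 of them. CUT&RUN directs a nuclease with an antibody to the places where a protein sits on DNA, and the released fragments are sequenced. A peak list gives, for 1 library, the places where these fragments piled up above the local background at a q-value of 0.05 or below.

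The cells were mouse embryonic stem (ES) cells of the KH2 line, in which doxycycline switches on a single-copy transgene for FLAG-tagged GATA6 and the red marker DsRed2. Each of the 15 groups had 2 lists. GATA6 was mapped at 0, 2, 4, 8 and 48 h. NANOG and SOX2 were each mapped at 0, 2, 4 and 8 h of induction, whereas the PrE factors GATA4 and SOX17 were mapped once, at 24 h. All groups carried the transgene, so the 0 h cells differ from the rest by doxycycline and also by their medium: they grew in 2i medium, and induction took place in serum with LIF. Doxycycline was given for 12 h, so the 24 and 48 h cells had also spent time without it. The antibody was directed against GATA6 itself, so GATA6 from the transgene and from the cells' own gene cannot be told apart in the lists. All lists come from a single ES cell line, and they record where proteins were bound, not how much Esrrb was transcribed. The study states that replicates were performed independently. Neither the labels nor the methods say that they came from separate cultures, so the spread between the 2 lists of a group may be technical.

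The time of 6 GATA6 lists is in doubt. The lists deposited under the 4 h samples carry file and peak names of 48 h, those under 8 h carry names of 4 h, and those under 48 h carry names of 8 h. Times here follow the names. Every GATA6 value given for 48 h is therefore a 4 h value by the record, every 4 h value an 8 h value, and every 8 h value a 48 h value.

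ESRRB is an orphan nuclear receptor that helps to hold mouse ES cells in the naive pluripotent state, together with NANOG, SOX2, OCT4 and KLF4. Its gene is switched off as cells leave that state. GATA6 is the transcription factor that drives the primitive endoderm (PrE), the alternative fate to the epiblast (Epi), which ES cells resemble. GATA4 and SOX17 act after GATA6 in the same lineage, whereas NANOG and SOX2 maintain the Epi program. Such factors bind short DNA words in enhancers and promoters, and several of them often share an enhancer.

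Esrrb spans 160512 bp on the plus strand. Of these, 60511 bp lie beyond the downstream edge of the window. Transcript Esrrb-204 begins at the start used here, and Esrrb-202 and Esrrb-203 begin at a second start, 86421644, which is 60.5 kb further downstream. The window also overlaps Gpatch2l, 4732487G21Rik and the small gene model Gm48101, all upstream of Esrrb. Summits of all lists that lay at most 200 bp apart were joined into 43 sites, named by the distance of their centre from the start. A list held a site when 1 of its peaks overlapped it. Both lists of at least 1 group held 18 sites, 18 sites were held by 1 list only, and 7 sites were held by 10 or more lists. The peaks lay mostly inside the gene: 146 were downstream of the start and 26 upstream.

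The sites with the highest GATA6 enrichment in both 2 h lists lay 34.4, 37.8 and 94.0 kb downstream of the start, all in Esrrb introns. The last of these was also the only site that both NANOG lists held at 0 h. Their sequence is given because these sites carry most of what follows. Each is the 201 bp of GRCm38.p6 (the build also called mm10) around the strongest GATA6 2 h summit, plus strand, 5′ to 3′. Capitals mark matches on either strand to a GATA word (GATA with A or T before it and A or G after it), a SOX word (ACAAAG or, for the other form, ACAATG) or the NANOG word TAATGG. Such GATA words overlap each other where they repeat.
Site at +34.4 kb, chr12:86395361-86395561: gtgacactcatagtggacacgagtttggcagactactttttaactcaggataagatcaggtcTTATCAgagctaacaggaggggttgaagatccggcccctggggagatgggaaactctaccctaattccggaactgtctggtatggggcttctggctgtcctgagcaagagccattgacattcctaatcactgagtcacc
Site at +37.8 kb, chr12:86398918-86399118: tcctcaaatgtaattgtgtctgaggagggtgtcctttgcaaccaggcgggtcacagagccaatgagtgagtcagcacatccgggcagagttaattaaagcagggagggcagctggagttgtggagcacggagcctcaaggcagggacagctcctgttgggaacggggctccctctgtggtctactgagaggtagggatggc
Site at +94.0 kb, chr12:86455045-86455245: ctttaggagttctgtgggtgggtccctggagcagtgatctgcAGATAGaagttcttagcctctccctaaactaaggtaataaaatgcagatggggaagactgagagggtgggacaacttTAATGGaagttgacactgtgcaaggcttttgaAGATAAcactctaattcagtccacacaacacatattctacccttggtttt

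The +34.4 kb sequence held 1 GATA word, TGATAA on the minus strand, at −36 bp from the summit. The +94.0 kb sequence held the GATA words AGATAG at −56 bp and AGATAA at 53 bp and the NANOG word TAATGG at 21 bp, all on the plus strand. The +37.8 kb sequence held none of the words searched. A further 2 sequences, chosen after the values were seen, show the sites next to the annotated starts. The +60.4 kb sequence ends just before the second start and held 1 GATA word. The +1.0 kb sequence held 8 GATA words, 7 of them in an overlapping run at its downstream end.
Site at +60.4 kb, chr12:86421433-86421633: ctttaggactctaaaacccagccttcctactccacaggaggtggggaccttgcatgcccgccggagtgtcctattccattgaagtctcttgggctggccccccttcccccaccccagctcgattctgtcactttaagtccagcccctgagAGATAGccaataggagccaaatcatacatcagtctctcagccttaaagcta
Site at +1.0 kb, chr12:86362015-86362215: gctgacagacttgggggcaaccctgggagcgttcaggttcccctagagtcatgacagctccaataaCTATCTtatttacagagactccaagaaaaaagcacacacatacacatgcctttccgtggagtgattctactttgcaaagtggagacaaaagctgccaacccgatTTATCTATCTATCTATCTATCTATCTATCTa

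A GATA6 2 h summit lay in 13 of the 14 sites that both GATA6 2 h lists held. A GATA word stood within 100 bp of the strongest of these summits in 8 of the 13, and 4 had 2 or more words. Genome-wide, 53.6% of 48033 such sites held a GATA word in the same window and 20.2% held 2 or more. The last 201 bases of 32851 RefSeq promoters held one in 19.9%. SOX words stood at 1 of the 13 sites and at 33.7% of the sites genome-wide, and the NANOG word at 1 of the 13 and at 7.75%. A match describes the letters only and does not show that a factor bound there.

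GATA6 peaks at Esrrb were numerous at 2 h and fewer at each later time. The 2 lists at 0 h held 0 and 0 peaks in the window. At 2 h they held 19 and 17, at 4 h 14 and 13, at 8 h 11 and 11, and at 48 h 0 and 0. The numbers at 2, 4 and 8 h did not overlap between times, and the 48 h lists were as empty as the uninduced ones. By the record, the order would be 2 h, then an empty 4 h, then 14 and 13 peaks at 8 h and 11 and 11 at 48 h. Peak number changed with time in an exact permutation test (two-sided, F statistic, 10 lists dealt among 5 times in all 113400 ways), whichever of both labellings is used (F = 266, p = 0.00317, adjusted p = 0.019 over the 6 tests of this kind). The smallest p this test can give is 0.00106.

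The length of the lists moved in the same way, from 79358 and 62683 peaks at 2 h to 5933 and 9767 at 48 h, and the 0 h lists held only 86 and 882. Per 10000 peaks of a list, the GATA6 lists held 2.39 and 2.71 window peaks at 2 h, 2.92 and 2.39 at 4 h, and 3.84 and 3.64 at 8 h. The 8 h lists were therefore above all 2 and 4 h lists on this scale. The 0 and 48 h lists stayed at 0, and the change with time passed (exact permutation test, p = 0.00635, adjusted p = 0.019). At such shares, lists as short as the 0 h ones would hardly hold a window peak. Their 0 in this test therefore says little about Esrrb. Kept to their 5933 strongest peaks by q-value, the 2 h lists held 3 and 3 window peaks, the 4 h lists 3 and 4, the 8 h lists 3 and 3, and the 48 h lists 0 and 0. The 0 h lists are too short for this comparison. Among the other 8 lists the 48 h pair stood apart from the rest, and the test did not pass (exact permutation test, p = 0.143). When 1 time alone stands apart among 8 lists, this test can give a p of up to 0.143. It therefore cannot decide whether the change was lost at equal length.

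NANOG peaks were also most numerous at 2 h, but their lists differed more. They held 2 and 2 window peaks at 0 h, 11 and 7 at 2 h, 5 and 2 at 4 h, and 4 and 0 at 8 h. Both 2 h lists were above every other NANOG list, while the 0, 4 and 8 h lists overlapped. The change with time did not pass the test (exact permutation test over 2520 arrangements, F = 4.32, p = 0.114, adjusted p = 0.171). When 1 time alone stands apart, this test can give a p of up to 0.143. With peaks limited to a −log10 q-value of 5 or more, it passed (exact permutation test, p = 0.00952, the smallest p it can give). Per 10000 peaks, the lists held 1.87 and 1.24 at 0 h, 2.1 and 2.62 at 2 h, 3.35 and 1.38 at 4 h, and 7.26 and 0 at 8 h, which overlap throughout (exact permutation test, p = 0.943, adjusted p = 0.943).

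SOX2 peaks were most numerous at 4 h. They numbered 2 and 3 at 0 h, 5 and 7 at 2 h, 12 and 7 at 4 h, and 2 and 4 at 8 h. The 2 and 4 h lists were all above the 0 and 8 h lists. Across the 4 times the change missed the threshold (exact permutation test, F = 4.9, p = 0.0571, adjusted p = 0.114). Per 10000 peaks, the lists held 0.631 and 1.12 at 0 h, 2.08 and 1.33 at 2 h, 2.65 and 2.84 at 4 h, and 1.42 and 3.47 at 8 h (exact permutation test, p = 0.257, adjusted p = 0.309). Without the first 8 h list, the highest time on this scale was 8 h in place of 4 h. GATA4 lists held 3 and 2 peaks at 24 h, and SOX17 lists 5 and 2.

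**Figure D1:**
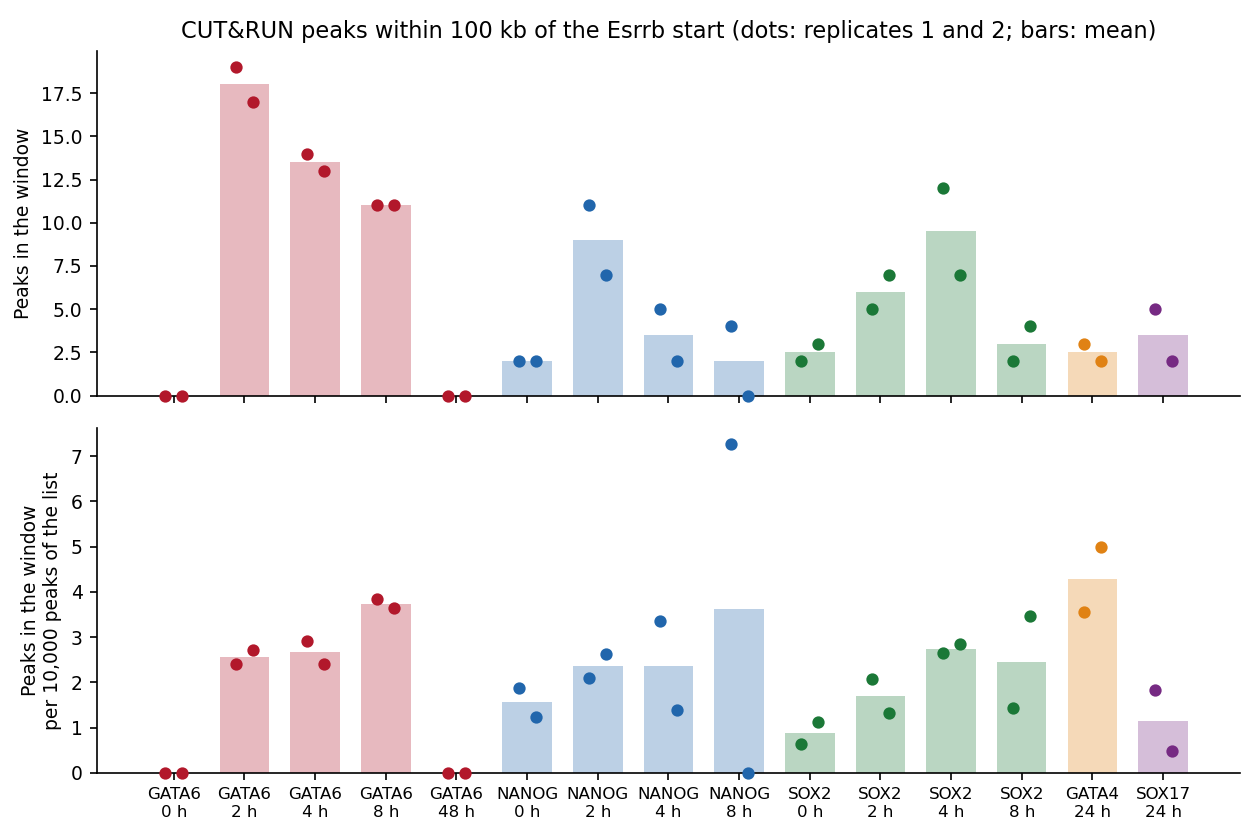
Number of peaks within 100 kb of the Esrrb start (upper panel) and the same per 10,000 peaks of the list (lower panel) for 15 groups, with a dot for each of the 2 lists and a bar at their mean. GATA6 goes from 19 and 17 peaks at 2 h to 0 at 48 h, NANOG is highest at 2 h and SOX2 at 4 h, and in the lower panel GATA6 is highest at 8 h.

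The share of the 43 sites that both lists of a group held was compared with the same share of all 229390 sites built in the same way over the genome. Both GATA6 2 h lists held 14 of the 43, or 32.6%, against 22.9% of sites genome-wide. The 4 h lists shared 12, or 27.9% (17.3% genome-wide), the 8 h lists 9, or 20.9% (10.3%), the 48 h lists 0 (1.91%) and the 0 h lists 0 (0.000436%). For NANOG, the 0 h lists shared 1 site (3.43%), the 2 h lists 5 (8.69%), the 4 h lists 2 (3.11%) and the 8 h lists 0 (0.212%). For SOX2, the 0 h lists shared 1 (8.35%), the 2 h lists 5 (8.26%), the 4 h lists 5 (8.36%) and the 8 h lists 2 (3.22%). Both GATA4 lists held 2 sites (1.39%), and both SOX17 lists held 2 (9.32%). The GATA6 counts at 2, 4 and 8 h stand above these genome-wide shares. The NANOG and SOX2 counts at 0 h are 1 site each and lie at or below theirs.

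The 14 sites of both GATA6 2 h lists were followed over time. At 4 h both lists still held 12 of them, against 61.9% of the 52600 such sites genome-wide. At 8 h they held 9 (35.8%), and at 48 h 0 (5.04%). A count of 0 in 14 lies near that last share. Of the 14, the NANOG pairs of 0, 2 and 4 h held 1 (11.4%), 5 (32.9%) and 2 (13.2%). The SOX2 pairs of the same times held 1 (23.3%), 3 (29.9%) and 4 (31.9%). The NANOG shares are thus close to the genome-wide ones at 2 and 4 h. Among these NANOG and SOX2 pairs, the SOX2 share at 0 h is the lowest against its background, but it rests on 1 site. Of the 14 sites, 13 lay in Esrrb introns and 1 upstream of the gene. No group other than GATA6 held 7 of the 14 in both of its lists. The genome-wide share of such sites was not counted, so this number is not read as a trait of Esrrb.

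**Figure D2:**
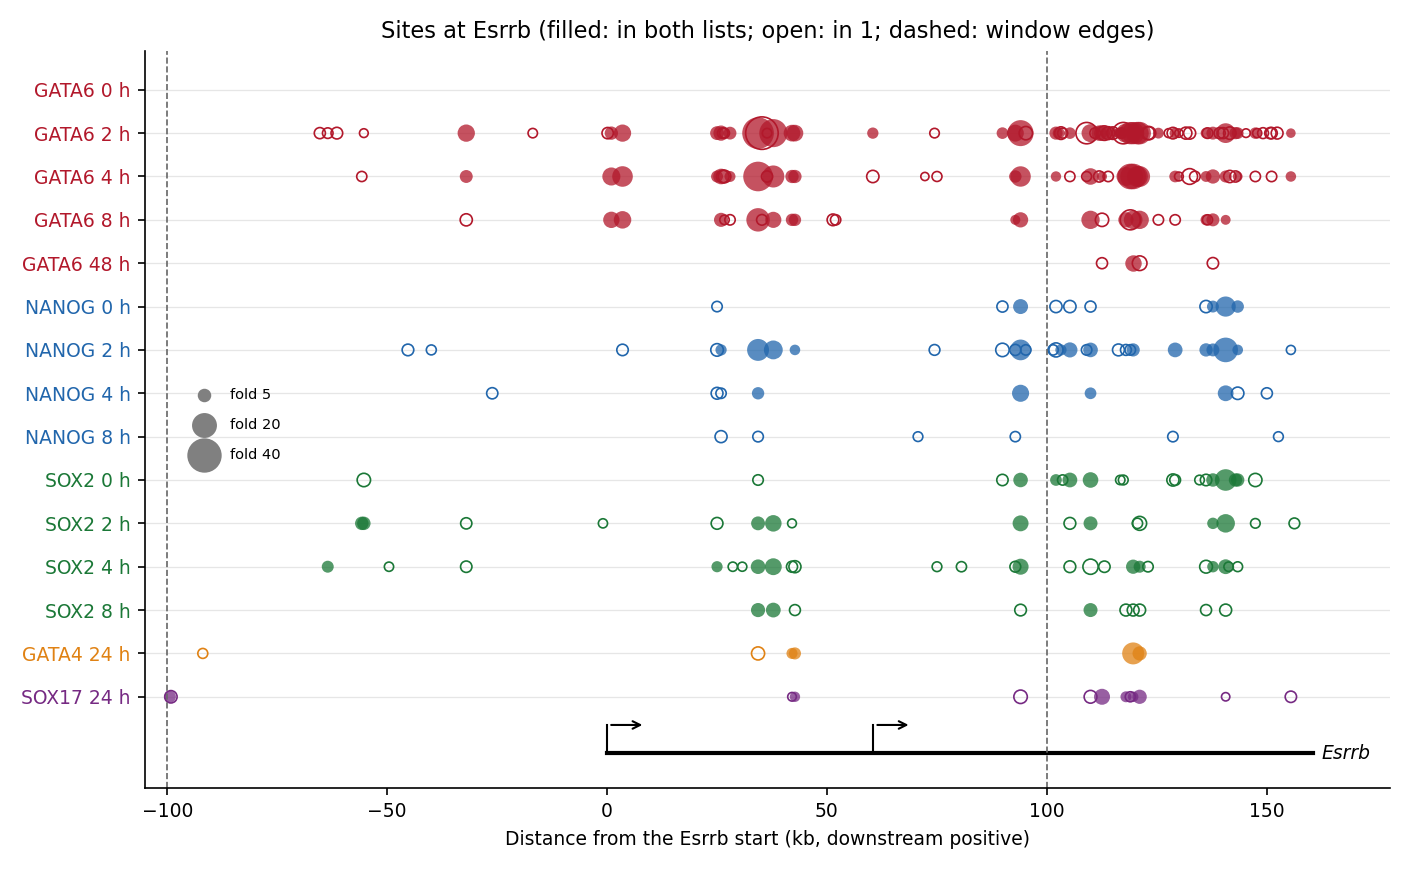
Sites at Esrrb by distance from its start (x axis, kb) and group (rows), with circle area proportional to the mean peak fold, filled where both lists held the site and open where 1 did; a wide peak is drawn at every site it covers. The black bar is the gene with its first and second starts, the dashed lines are the window edges at 100 kb, and the densest stretch of sites lies just past the downstream edge.

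The site at +34.4 kb was held by 19 lists and had the highest GATA6 enrichment of the locus. A peak's fold is the peak caller's ratio of the summit pileup to what it took as background there. The ratio is taken after 1 is added to each, which lowers it most where the background is low. GATA6 fold was 40.5 and 36.4 at 2 h, 29.7 and 37.8 at 4 h, and 21.5 and 20.7 at 8 h. Both 8 h values were below all 2 and 4 h values, a log2 difference of −0.86 ± 0.12 from 2 h (SD, n = 2 lists at each time), while the 4 and 2 h values overlapped. In the 2 h lists these peaks ranked 649 and 503 by fold. NANOG did not reach the peak threshold here in either 0 h list. It was at 25.9 and 11.0 at 2 h, at 5.32 and 6.44 at 4 h, and at 4.27 in 1 of the 2 lists at 8 h. Both 2 h values lie above both 4 h values (−1.53 ± 0.90, log2 difference of 4 h from 2 h). With summit pileup divided by the background coverage of the list instead, this difference was smaller, at −0.79 ± 0.73. SOX2 was called in 1 of 2 lists at 0 h, with a fold of 4.21. It reached 6.06 and 8.71 at 2 h, 8.17 and 8.22 at 4 h, and 7.57 and 7.81 at 8 h. GATA4 was called in 1 of its 2 lists, at 6.58, and SOX17 in neither.

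At +37.8 kb, 14 lists held a peak. GATA6 fold was 35.9 and 24.6 at 2 h, 14.5 and 22.8 at 4 h, and 10.5 and 9.54 at 8 h. The values of the 3 times did not overlap and were lower at each later time, and the 8 h mean was lower than the 2 h mean by a log2 difference of −1.57 ± 0.40. NANOG was called at 2 h only, in both lists, at 13.8 and 13.5. SOX2 was called in neither 0 h list and in both lists at every later time: 10.4 and 10.6 at 2 h, 11.2 and 10.6 at 4 h, and 7.75 and 9.05 at 8 h. The 8 h SOX2 values were below those at 2 and 4 h. Neither GATA4 nor SOX17 was called here.

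At +94.0 kb, 20 lists held a peak, the most of any site in the window. It was the only site that both lists of NANOG and both lists of SOX2 held at 0 h. NANOG fold was 8.98 and 8.2 at 0 h, 22.1 and 11.0 at 2 h, 10.9 and 11.5 at 4 h, and not called in either list at 8 h. The 2 h values lie above those at 0 h (0.86 ± 0.72, log2 difference), while the 2 and 4 h values overlap. SOX2 fold was 10.8 and 5.5 at 0 h, 9.01 and 10.5 at 2 h, 10.6 and 9.12 at 4 h, and 5.2 in 1 of 2 lists at 8 h, so SOX2 overlapped at 0, 2 and 4 h. GATA6 fold was 24.1 and 27.8 at 2 h, 12.1 and 19.9 at 4 h, and 8.48 and 9.41 at 8 h. These too were lower at each later time with no overlap, and the 8 h mean was lower than the 2 h mean by a log2 difference of −1.54 ± 0.18. SOX17 was called in 1 of its 2 lists, at 6.96, and GATA4 in neither. With 2 lists at each time, no test between 2 times can go below p = 0.333 (two-sided exact permutation). The differences between times are therefore given with their spread only. The sites at +34.4, +37.8 and +94.0 kb were chosen by their GATA6 fold at 2 h, which favours lower GATA6 folds later.

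**Figure D3:**
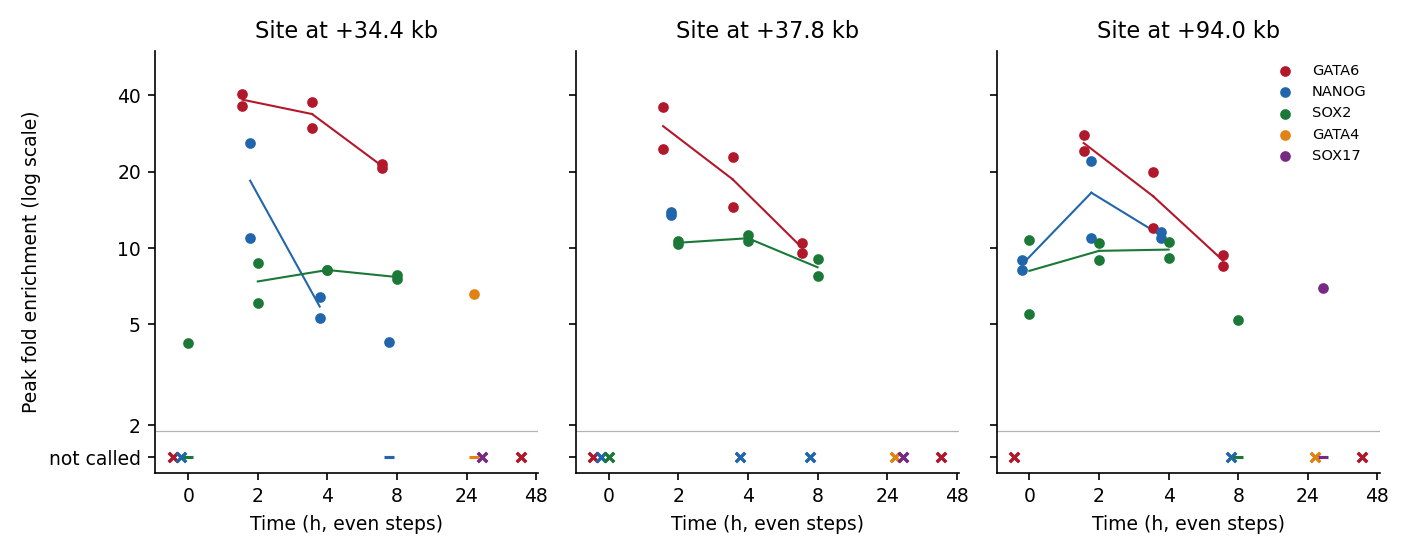
Peak fold (log axis) of each list by time (hours, evenly spaced) at the sites +34.4, +37.8 and +94.0 kb, with a dot per list, lines through the means where both lists held the site, a cross where neither list did and a dash where 1 did not. GATA6 is lower at 8 h than at 2 h at all of them, but they were chosen by their GATA6 fold at 2 h. NANOG is called at 0 h at +94.0 kb and at neither of the other sites. SOX2 stays between 6.06 and 11.2 at +34.4 and +37.8 kb from 2 h on.

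The empty GATA6 lists are given beside their depth. From the fold and p-value of each peak, the number of fragments at its summit can be recovered. The +34.4 kb summit held 105 and 88 fragments at 2 h, 68 and 92 at 4 h, and 60 and 54 at 8 h. The weakest peaks called in the 48 h lists had 7 fragments, over a background coverage of 0.928 and 1.22 fragments. This coverage was 1.29 and 1.2 in the 8 h lists. In the 0 h GATA6 lists the background coverage was 0.287 and 0.315, lower than in any other GATA6 list, and the weakest called peak had 5 fragments. In the SOX2 lists it was 0.29 to 0.692, against 0.865 to 1.31 in the NANOG lists, so a given fold rests on fewer fragments for SOX2. A site that is not called was not detectable at the depth of that list, which does not show that the factor was absent.

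The GATA6 sites at +1.0 and +3.5 kb, near the first start, had higher folds at 4 h than at 2 h. At +3.5 kb, GATA6 fold was 13.0 and 9.84 at 2 h, 13.4 and 19.1 at 4 h, and 11.0 and 12.5 at 8 h. Both 4 h values were above both 2 h values, and the 8 h values overlapped those at 2 h. NANOG was called here in 1 list, at 2 h, with a fold of 5.04. At +1.0 kb, beside the run of GATA words shown above, GATA6 fold was 8.15 and 5.51 at 2 h, 10.1 and 15.0 at 4 h, and 6.68 and 13.9 at 8 h. The 4 h values were again above those at 2 h, and no list of another factor held the site. Both GATA6 lists held 12 sites at 2 h and also at 4 h. The 4 h folds were below both 2 h folds at 7 of them (35.9% of such sites genome-wide). They were above both at 2, these +1.0 and +3.5 kb sites (13.8% genome-wide). A count of 2 in 12 lies near that last share. Of the 9 sites held at 2 and 8 h, the 8 h folds were lower without overlap at 6 (55.0% genome-wide) and higher at 0 (14.9%). The neighbouring sites at +42.1 and +42.7 kb lay under the same GATA6 peaks. They had the same folds and were counted separately among the lower sites at both times.

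The start itself had little. The nearest site lay 0.149 kb downstream of it, in the first exon, and was held by 1 GATA6 2 h list with a fold of 4.91 and 11 fragments. At +60.4 kb, whose summits surround the second start, GATA6 was called in both 2 h lists at 6.23 and 3.57 and in 1 of 2 lists at 4 h, at 5.81. No list of NANOG, SOX2, GATA4 or SOX17 held either site. A single SOX2 2 h list had a peak at −0.923 kb from the first start, with a fold of 3.23.

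The 2 neighbouring sites at +42.1 and +42.7 kb were the only ones in the window that both GATA4 lists held. GATA4 was otherwise called in 1 list each at +34.4 and −91.9 kb, at 6.58 and 3.79. They lay under single wide GATA6 peaks of 1163 to 2328 bp, with folds of 13.5 and 7.94 at 2 h, 6.53 and 7.0 at 4 h, and 5.43 and 6.38 at 8 h. Both 2 h folds lie above all later ones. This did not hold for summit pileup divided by the background coverage of the list. On that scale the 2 h values, 26.9 and 17.1, overlapped those at 4 h, 25.2 and 20.8. GATA4 was called in both lists at both sites, at 5.23 and 4.24 for +42.1 kb and at 5.23 and 6.03 for +42.7 kb, where the first list had 1 peak over both. SOX17 was called in both lists at +42.7 kb, at 4.07 and 4.19, and in 1 list at +42.1 kb, at 2.85. NANOG was called at +42.7 kb in both 2 h lists, at 4.65 and 3.91, and at neither site at any other time. SOX2 was called in single lists only.

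The cluster from +25.0 to +28.0 kb was led by GATA6 as well. At +25.9 kb, GATA6 fold was 8.55 and 9.42 at 2 h, 6.16 and 12.6 at 4 h, and 6.71 and 8.63 at 8 h, values that overlap. NANOG was called there in both 2 h lists, at 4.32 and 5.4, and in 1 list each at 4 and 8 h. At +25.0 kb, GATA6 fold was 8.55 and 6.16 at 2 h and 5.72 and 5.23 at 4 h, the first list at 2 h again holding 1 peak over both sites. SOX2 was called there in both lists at 4 h, at 4.62 and 4.97, and in 1 list at 2 h, at 5.32. NANOG was called there in 1 list each at 0, 2 and 4 h. At +28.0 kb, GATA6 fold was 5.71 and 6.95 at 2 h and 3.47 and 5.78 at 4 h, and 1 list held the site at 8 h.

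Near the downstream edge, +92.9 kb held GATA6 folds of 12.0 and 10.2 at 2 h, 6.6 and 5.29 at 4 h, and 3.53 and 4.14 at 8 h, lower at each later time without overlap. NANOG was called there in 1 list each at 2 and 8 h, and SOX2 in 1 list at 4 h. At +89.9 kb, GATA6 was called in both 2 h lists, at 4.27 and 6.16, and at no other time. NANOG was called in 1 of 2 lists at 0 h, at 4.73, and in 1 of 2 at 2 h, at 6.91. SOX2 was called in 1 of 2 lists at 0 h, at 4.94.

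Upstream of the gene, GATA6 held 1 site in both lists, the intergenic −32.0 kb site. Its fold was 10.7 and 12.3 at 2 h, 5.72 and 7.13 at 4 h, and 5.67 in 1 of 2 lists at 8 h. SOX2 was called there in 1 list each at 2 and 4 h. The sites at −55.8 and −55.3 kb, in an intron and an exon of 4732487G21Rik, lay under 1 SOX2 peak in each 2 h list, at 4.84 and 9.08, and 1 SOX2 0 h list held the latter site at 6.88. The −63.5 kb site was held by both SOX2 4 h lists, at 4.62 and 6.39, and the −99.4 kb site, in an exon of Gpatch2l, by both SOX17 lists, at 4.91 and 5.88. NANOG held no upstream site in both lists of a time. The other 25 sites were held by both lists of no group.

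**Figure D4:**
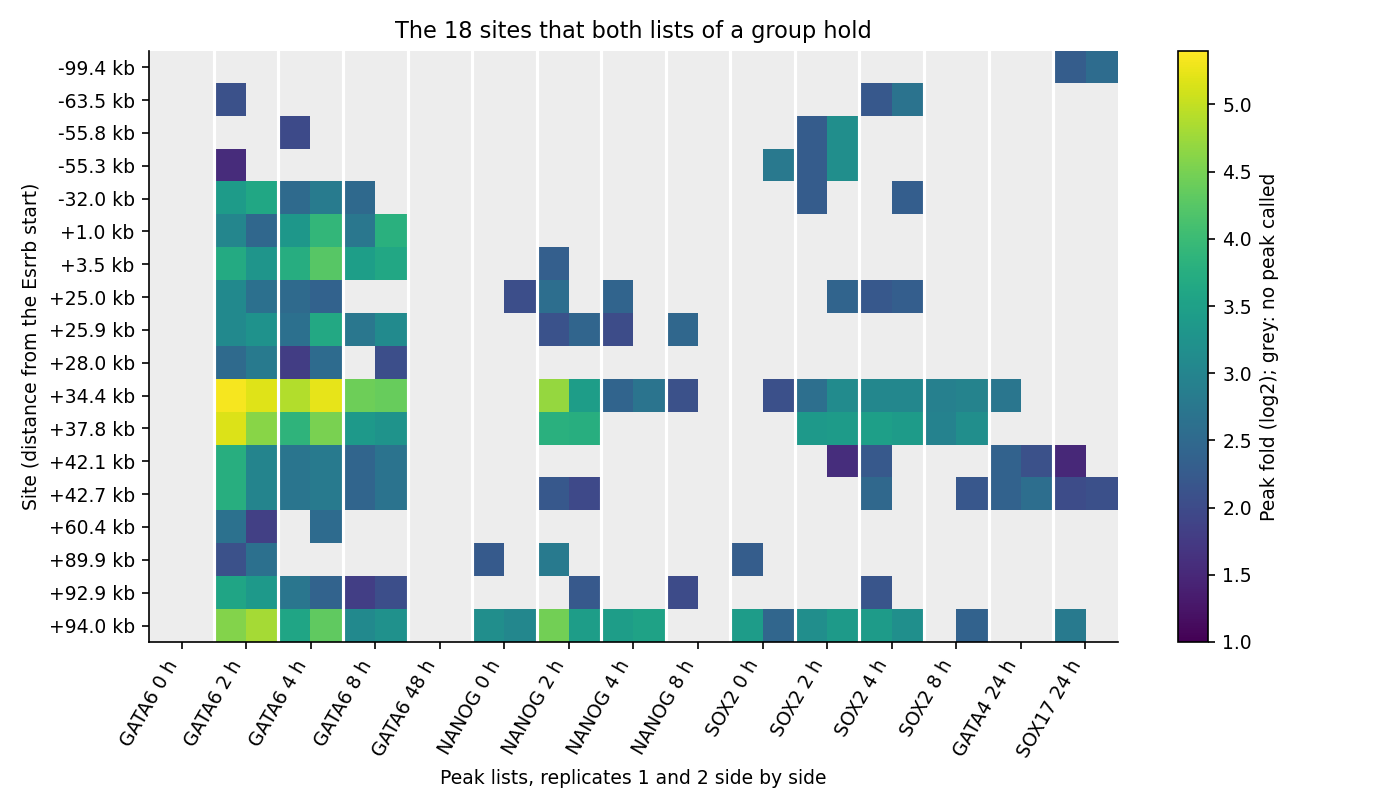
Peak fold (log2 color scale, grey where no peak was called) at the 18 sites that both lists of a group held (rows, by distance from the Esrrb start) in the 30 lists (columns, replicates 1 and 2 side by side). Of the rows from −32.0 to +94.0 kb, both GATA6 lists fill 14, 12 and 9 in the 2, 4 and 8 h pairs, the most SOX2 calls are at +34.4, +37.8 and +94.0 kb, the most NANOG calls are at +94.0 and +34.4 kb, and the GATA6 0 and 48 h columns are empty.

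The window ends inside the gene, and the remaining 60511 bp held more peaks than the window did. The member nearest the downstream edge lay 95.3 kb from the start (GATA6, 2 h, fold 6.84), and the first peak beyond it at 101 kb (NANOG, 2 h, fold 4.05). On the upstream side they lay at −99.4 kb (SOX17, fold 4.91) and −107 kb (SOX2, 4 h, fold 3.98). From the edge to the end of Esrrb there were 227 peaks in 57 sites, of which both lists of a group held 25. There, the GATA6 lists of a time shared 24 of the 57 sites at 2 h (22.9% of sites genome-wide). The 4, 8 and 48 h pairs shared 14 (17.3%), 7 (10.3%) and 1 (1.91%), and 1 in 57 lies near that last share. The NANOG pairs of 0, 2, 4 and 8 h shared 3 (3.43%), 9 (8.69%), 2 (3.11%) and 0 (0.212%) sites. The SOX2 pairs of the same times shared 7 (8.35%), 3 (8.26%), 4 (8.36%) and 1 (3.22%).

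Of these outer sites, 2 bear on the results above. The outer site of most lists, +141 kb, had NANOG folds of 14.4 and 16.8 at 0 h, 30.3 and 16.3 at 2 h, and 9.15 and 10.0 at 4 h. SOX2 fold there was 15.6 and 20.2 at 0 h and 9.58 and 16.7 at 2 h, and GATA6 fold was 18.0 and 12.0 at 2 h, 6.03 and 5.11 at 4 h, and 3.2 and 4.36 at 8 h. Before induction, NANOG and SOX2 were thus both higher here than at +94.0 kb. At +120 kb, GATA6 was still called at 48 h, at 12.5 and 8.26. Its folds there were 17.6 and 20.7 at 2 h, 26.96 and 23.5 at 4 h, and 11.5 and 15.3 at 8 h. The 2 and 4 h folds and the second 8 h fold are of wide peaks that also cover the site at +119 kb. GATA4 was at 20.2 and 16.9 at +120 kb. The lack of GATA6 peaks at 48 h therefore holds for the window of the rule and not for the whole gene.

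A window of the same size around the second start, chosen after the data were seen, covers this stretch. It held 48 and 39 GATA6 peaks at 2 h, 28 and 32 at 4 h, 18 and 21 at 8 h, and 1 and 4 at 48 h (exact permutation test with the empty 0 h lists, p = 0.00106). NANOG had 7 and 8 peaks in it at 0 h, 25 and 18 at 2 h, 9 and 4 at 4 h, and 6 and 0 at 8 h (exact permutation test, p = 0.0667). SOX2 had 12 and 12 at 0 h, 7 and 15 at 2 h, 19 and 12 at 4 h, and 5 and 8 at 8 h (exact permutation test, p = 0.371). The low SOX2 number at 0 h in the window of the rule was thus not found around the second start.

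Windows of 100 kb around the starts of all 21911 protein-coding genes were counted in the same way. Esrrb, with a mean of 18 GATA6 2 h peaks, had more than 88.8% of them, where the median gene had 7. At 8 h its mean of 11 was above 95.5% of genes. At 48 h it had 0, as did 38.0% of all genes, but of the 2463 genes with at least as many GATA6 2 h peaks as Esrrb, only 11.8% had 0. For NANOG its rank was 69.5% of genes below it at 0 h and 86.3% at 2 h. For SOX2 it moved from 39.3% below it at 0 h to 92.6% at 4 h.

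Esrrb was set beside 14 genes of the naive pluripotency network, which are Nanog, Sox2, Pou5f1, Klf2, Klf4, Klf5, Tfcp2l1, Tbx3, Nr5a2, Zfp42, Prdm14, Sall4, Tdgf1 and Nr0b1. Their GATA6 2 h means ran from 4.5 to 51, with a median of 22, and 8 of the 14 lay above Esrrb. At 48 h all 14 had a GATA6 peak in at least 1 list, with a median of 2, and 8 had one in both. The count nearest to the 0 of Esrrb was in the windows of Sox2 and Nr0b1, which had 0 and 1 peaks in the 2 lists. NANOG 0 h means ran from 2 to 9 with a median of 5: 13 genes were above the mean of 2 at Esrrb, and Tdgf1 was equal to it. SOX2 0 h means ran from 3 to 17, all above the 2.5 of Esrrb. With this start as the centre, Esrrb was thus at the low end of the list for both Epi factors before induction, and in the middle of it for GATA6 at 2 h.

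The 11 genes of the PrE list were Gata6, Gata4, Sox17, Sox7, Pdgfra, Dab2, Lama1, Col4a1, Foxa2, Lrp2 and Cubn. Their GATA6 2 h means ran from 5.5 to 18, with a median of 9.5, so none was above Esrrb and Pdgfra, a receptor that marks the PrE, was equal to it. At 48 h all 11 had GATA6 peaks in both lists, with means from 4 to 11. SOX17 24 h means ran from 10.5 to 34.5, all above the 3.5 of Esrrb, and GATA4 means ran from 1.5 to 8, with 9 of the 11 above the 2.5 of Esrrb. The SOX17 median was 11.5 over the pluripotency list and 19.5 over the PrE list, against 3.5 over all genes.

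**Figure D5:**
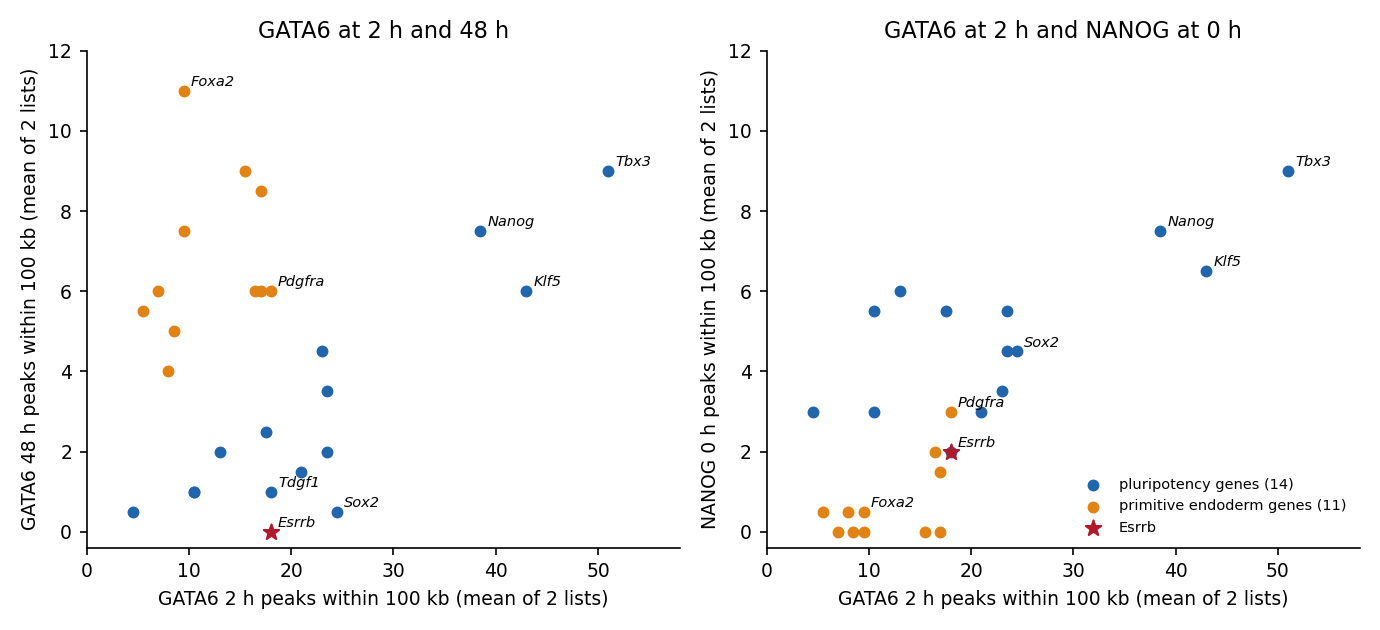
Mean number of GATA6 2 h peaks within 100 kb of a gene's start (x axis) against GATA6 48 h peaks (left panel) and NANOG 0 h peaks (right panel), each the mean of 2 lists, for 14 pluripotency genes, 11 PrE genes and Esrrb (star). Esrrb, at 18 peaks on the x axis, is the only one of these genes at 0 in the left panel, and all pluripotency genes lie at or above its 2 peaks in the right panel.

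Over the 30 lists, the genes whose peak numbers moved most like those of Esrrb were Fzd5 (Pearson r = 0.763), Rbms1 (0.737), Ccnyl1 (0.728), Gm28729 (0.722) and Meioc (0.72). Each number was taken relative to the mean of its list, and 19238 genes were compared. None of the 5 had a GATA6 48 h peak in its window, a value that is part of the measure that chose them. The lists share their factors and times, and Fzd5 and Ccnyl1 start at 64737751 and 64690455 of chromosome 1, so that their windows overlap and are not separate examples.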

How the data were processed

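By their methods, the authors aligned the reads with Bowtie2 to mm10, removed blacklisted regions, kept duplicates and called narrow peaks with MACS for each library against a rabbit anti-rabbit control. The deposited fold is the ratio of summit pileup to local background described above. The deposited −log10 p-value and −log10 q-value are the caller's own. The lists give no read totals. Fragments at a summit and background coverage were recovered from fold and p-value, within 0.2%, for 99.1 to 100% of the pairs tested, but for only 10.4 and 12.6% in the GATA4 lists, where they were not used. Peak numbers were compared by two-sided exact permutation tests over lists with F as statistic, adjusted by Benjamini and Hochberg over 6 tests and tested on simulated data. Genes came from GENCODE vM21 and sequence from RefSeq GRCm38.p6, whose chromosomes hold all peaks. Python 3.11.15, NumPy 2.4.6, pandas 2.3.3 and SciPy 1.17.1 were used. The members, sites, gene lists and tests were chosen with earlier results of these data known. By the rule, genes named are Esrrb, those in its window, the fixed lists and the 5 most alike, and sequences shown are the 3 sites of highest GATA6 2 h fold and those of highest NANOG 0 h fold. That of the site nearest the start lies in an exon and is not shown. A gene of the fixed PrE list is not reported here. The other 27 samples were not analysed here.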

Additional observations from a re-analysis of the deposited data

How the results depend on the processing

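The GATA6 peak number kept its call and its highest time, 2 h, under each alternative without the block (windows of 50 and 200 kb, the second start, a −log10 q-value of 5, each list left out, p from 0.00106 to 0.00635) except lists of equal length, where 4 h was highest and p was 0.143 (exact permutation test throughout). Per 10000 peaks, GATA6 was highest at 2 h with a 200 kb window (exact permutation p = 0.00423) and at 4 h with equal lists (p = 0.143), and p ranged from 0.00635 to 0.00952 with 1 list left out. At a −log10 q-value of 5, NANOG passed on both scales (exact permutation p = 0.00952), with 4 h highest per 10000. NANOG per 10000 was highest at 2 h with a 200 kb window (exact permutation p = 0.952), equal lists (0.714) and the second start (0.962), and at 4 h without the first 8 h list (0.295). With 1 list left out, p ranged from 0.0857 to 0.371 for the NANOG number, 0.0857 to 0.99 per 10000, 0.0286 to 0.181 for the SOX2 number and 0.019 to 0.505 per 10000. With equal lists, the mean SOX2 number was the same at 2, 4 and 8 h (exact permutation p = 0.238). SOX2 per 10000 was highest at 8 h at a −log10 q-value of 5 (exact permutation p = 0.152), with a 50 kb window (0.0571), around the second start (0.419) and without the first 8 h list (0.019). The cause of these shifts was not tested. For GATA6 with equal lists, an exact permutation p of 0.143 can arise when 1 time alone stands apart.

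In the fit with the replicate block, p was 0.0167 and 0.0333 for GATA6, 0.167 and 0.875 for NANOG, and 0.167 and 0.292 for SOX2 (number and per 10000), and no call changed. Deviations of same-numbered lists correlated at −0.17 to 0.0854 over the 22 pairs of times, so peak numbers showed no pairing of the lists. In the GATA6 0 h lists 90.9% of genes had no peak, so pairs with that time could show little. Such counts cannot exclude a shared culture or batch.

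Sites numbered 25 in place of 43 at a −log10 q-value of 5. With summits joined at 100 bp, both GATA6 2 h lists held 22 sites, both NANOG 0 h lists 3, both SOX2 0 h lists 3, and both NANOG 0 h lists 3 of the GATA6 2 h sites, because wide peaks then cover more, smaller sites. With either list in place of both, these were 26, 3, 4 and 3. With 1 list left out, they ranged from 18 to 22, were 2 for NANOG, ranged from 2 to 3 for SOX2 and from 1 to 2 for the shared sites, and GATA6 48 h stayed at 0. By the record, both GATA6 48 h lists held 9 sites. Of 15 fold differences between times at the leading sites, which were chosen by GATA6 fold at 2 h, 9 were larger than their spread. As pileup over background, all 15 kept their direction and 12 moved by less than their spread. As percentiles in the list, a different unit, 13 kept their direction, the other 2 being smaller than their spread, and 8 of the 9 were again larger than their spread. The lowest pileup of a called peak, 4 to 8 fragments, limits what could be detected.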
